A study of Mus musculus with 6 samples.

Results

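The genes described here are those of the mouse major histocompatibility complex (MHC) and of the machinery that loads and regulates MHC molecules, measured by RNA-seq in DEN-induced liver tumors. They were taken from the count table by symbol, as every row whose symbol begins with H2- together with B2m, Tap1, Tap2, Tapbp, Nlrc5, Ciita and Cd74, which gave 50 of 24063 rows. Of these, 32 were class I genes, 10 were class II genes, 4 were accessory genes of class I (B2m, Tap1, Tap2, Tapbp), 2 were transactivators (Nlrc5, Ciita), 1 was the invariant chain Cd74 and 1, H2-Ke6, lies in the complex but does not encode an MHC molecule. The tumors came from male C57BL/6 mice that were given diethylnitrosamine (DEN), a liver carcinogen, at 25 mg/kg on day 15 after birth and belonged to the 24-week time point. The controls were 3 tumors of wild-type (WT) mice with intact Nr2e3, and they were compared with 3 tumors of mice lacking the nuclear receptor gene Nr2e3 (Nr2e3-/-) in the whole body, with 1 library per tumor. Both groups thus carried the carcinogen exposure, and no untreated or non-tumor liver was part of the table. The study's methods give 3 mice per genotype, the WT mice being C57BL/6J, while the labels do not tie a library to a mouse.

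Class I molecules display peptides from the cytosol to CD8 T cells. Their heavy chain pairs with beta-2-microglobulin (B2m), the peptides are pumped into the endoplasmic reticulum by the Tap1-Tap2 transporter, and tapasin (Tapbp) bridges the transporter to the empty molecule. Class II molecules are dimers of an alpha and a beta chain on professional antigen-presenting cells such as B cells, dendritic cells and macrophages. They travel with the invariant chain (Cd74), exchange its remnant for antigen peptides with the help of H2-DM, and are transcribed under Ciita, the class II transactivator, whereas Nlrc5 plays that part for class I. Hepatocytes normally carry class I and little class II, and mouse liver secretes the class I molecule H2-Q10.

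Promoters of both classes are known for an X box and a Y box held at a fixed spacing, on which the transactivators assemble. Windows of 250 bases before the gene start were available in the RefSeq promoter table (GRCm38.p6) for 34 of the 50 members. The motifs searched on both strands were ACNGATG (the end of the X1 box), CCAAT (the core of the Y box), TGCGTCA (the X2 box) and GAAANNGAA (the core of an interferon response element), and 8.31%, 33.8%, 1.75% and 7.13% of all 32851 windows held them. An X1 end followed by the Y box letters in inverted form (ATTGG on the strand of the X1 end), with their starts 29 to 30 bases apart, was found in 12 of the 32851 windows (0.0365%), of which 9 were members: the class II genes H2-Eb1, H2-Eb2, H2-DMb1 and H2-DMb2 and the class I genes H2-D1, H2-M3, H2-Q4, H2-Q6 and H2-Q7. This spacing was chosen after the matches had been seen, and a match is a description of letters and not a binding site. The 130 bases before the start are shown for a class II beta chain, a peptide exchange chain, a class II alpha chain with only a Y box match in the printed bases (its X1 match starts 232 bases before the gene start), 2 class I genes with the pair and the liver class I gene H2-Q10 with no match, and capitals mark the X1 ends (ACTGATG) and the Y boxes (CCAAT, or ATTGG on the other strand).
H2-Eb1 (chr17:34305737-34305866, + strand): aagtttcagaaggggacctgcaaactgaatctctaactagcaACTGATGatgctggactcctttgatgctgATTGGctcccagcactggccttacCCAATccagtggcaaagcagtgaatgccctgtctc
H2-DMb1 (chr17:34153061-34153190, + strand): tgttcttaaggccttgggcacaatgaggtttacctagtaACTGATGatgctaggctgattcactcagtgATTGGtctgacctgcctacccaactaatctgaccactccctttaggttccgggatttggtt
H2-Aa (chr17:34287824-34287953, - strand): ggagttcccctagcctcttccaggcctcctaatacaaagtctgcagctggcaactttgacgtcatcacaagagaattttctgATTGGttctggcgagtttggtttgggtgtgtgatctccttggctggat
H2-D1 (chr17:35262964-35263093, + strand): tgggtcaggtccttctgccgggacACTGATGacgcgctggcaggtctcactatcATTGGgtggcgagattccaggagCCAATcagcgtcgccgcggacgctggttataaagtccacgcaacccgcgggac
H2-Q6 (chr17:35424720-35424849, + strand): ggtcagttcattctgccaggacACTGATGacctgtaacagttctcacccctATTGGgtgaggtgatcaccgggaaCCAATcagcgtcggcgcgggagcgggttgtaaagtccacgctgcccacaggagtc
H2-Q10 (chr17:35469959-35470088, + strand): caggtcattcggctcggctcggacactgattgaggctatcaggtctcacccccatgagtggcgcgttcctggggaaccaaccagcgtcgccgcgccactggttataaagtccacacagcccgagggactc
The pair thus stood before genes of both classes. None of the 22 class I or 8 class II genes with a window held the X2 letters, which says only that these exact letters were not in the window.

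The libraries held 15376261 to 28690279 counts on gene rows, and values are given as CPM, counts per 1000000 counts of the TMM-scaled library. Nr2e3 had 0 counts in all 6 libraries, WT included, so the genotypes could not be checked on the targeted gene. Hepatocyte transcripts were high throughout, with Alb, the albumin gene, at 83985 to 130165 CPM. Nr2e3-/- replicate 1, the shallowest library, stood apart: without it 3022 of 13840 genes had an adjusted p under 0.05 in the edgeR quasi-likelihood test (21.8%), against 13 of 13572 genes (0.0958%) with all 6 libraries. Nr2e3-/- replicate 2 had the highest summed level of 10 macrophage markers (1066 CPM, against 480 to 633 CPM in the other libraries), and WT replicate 2 had the highest class II level. Where these libraries change a call or a direction, the value without them is given.

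Of the 50 members, 9 had no count in any library, namely the class I genes H2-M1, H2-M9, H2-M10.1 to H2-M10.5 and H2-M11 and the class II pseudogene H2-Ea-ps, which allows levels of up to 0.105 to 0.195 CPM (3 counts per library). H2-Ea carries a defect in the b haplotype of C57BL/6 mice. Another 6 members had counts but were below the expression filter (H2-T3, H2-M5, H2-M10.6, H2-Oa, H2-DMb2 and H2-Eb2), and their highest value was 0.372 CPM. The remaining 35 were tested, 21 of class I and 6 of class II.

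Class I transcripts were far more abundant than class II transcripts in every library. Per kilobase of the principal transcript, the WT mean was highest for B2m (1630 ± 159 CPM per kb, SD, n = 3), followed by H2-Q10 (1067 ± 99.5), the classical heavy chains H2-K1 (618 ± 76.6) and H2-D1 (222 ± 27.2), and H2-T23 (90.7 ± 7.04), which encodes Qa-1, a ligand of inhibitory receptors on NK cells. Among the members of the class II pathway Cd74 was the most abundant at 61.7 ± 12.9 CPM per kb, and the classical class II chains were lower, with H2-Aa at 30.8 ± 7.49, H2-Ab1 at 22.3 ± 6.52 and H2-Eb1 at 15.3 ± 4.46. The ranges of mean ± SD of H2-Ab1 overlapped those of H2-Aa and of H2-Eb1 on this scale, while those of B2m, H2-Q10, H2-K1 and H2-D1 did not overlap. H2-K1, H2-D1 and H2-Q10 made up 91.6 to 94.0% of the class I sum, leaving out the rows H2-L and H2-T9, which run close to other rows as described below.

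**Figure D1:**
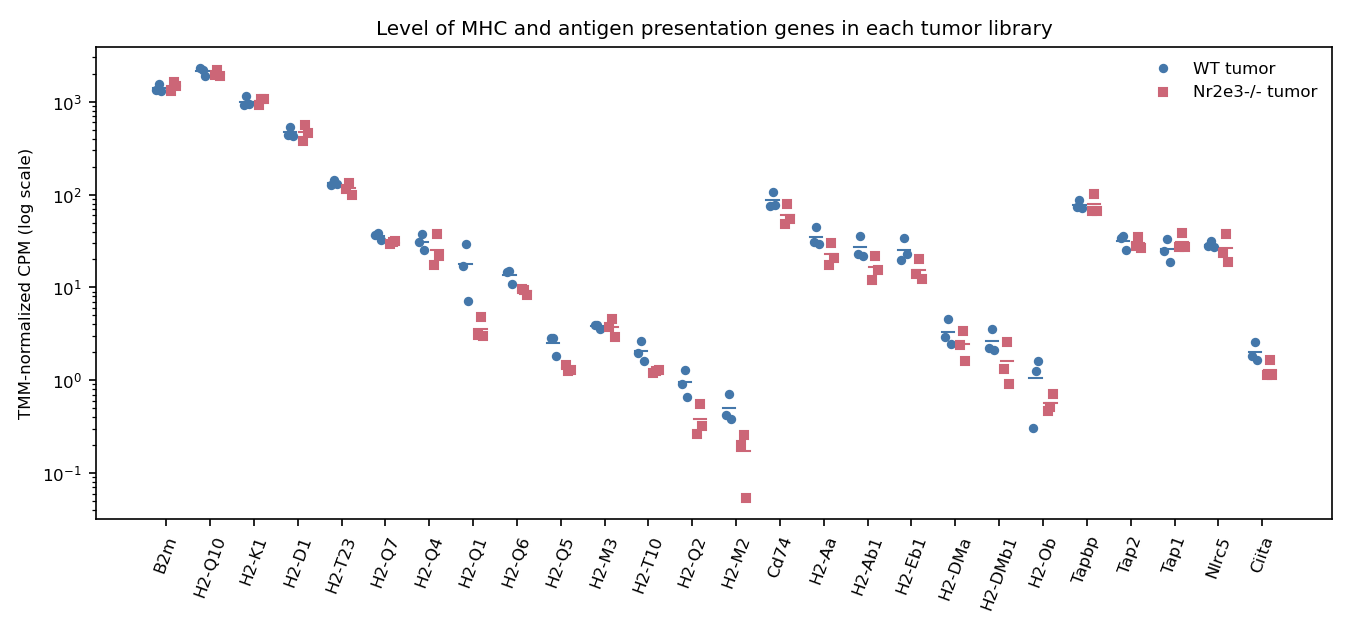
Level of 26 members in each library, as TMM-normalized CPM on a log axis; circles are the 3 WT tumors, squares the 3 Nr2e3-/- tumors and short bars the group means. B2m, H2-Q10, H2-K1 and H2-D1 lie between 376 and 2284 CPM with the genotypes mixed, whereas the squares sit low for H2-Q1, H2-Q5, H2-Q2 and H2-M2.

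Where the genotypes differed, the members were lower in Nr2e3-/- tumors. Of the 35 tested members, 10 had an unadjusted p under 0.05 in the edgeR test, and all 10 were lower in Nr2e3-/- tumors (28.6%, or 9 of 33 rows when identical rows are counted once), while 9.72% of all tested genes were lower and 11.8% higher at that threshold. None had an adjusted p under 0.05 in edgeR, where the lowest was 0.1005 for H2-Q1. With DESeq2, 10 members were lower at an unadjusted p under 0.05, against 9.4% of the genes, and 1, H2-Q1, was lower at an adjusted p under 0.05, against 3.07% of the genes in that direction and 8.0% in either. The fitted fold change was negative for 30 of the 35, with a median log2 fold change of -0.28, where the median over all 13572 tested genes was 0.007. The groups did not overlap in CPM for 10 members, all lower in Nr2e3-/- (8 with identical rows counted once), against 12.9% of all tested genes. With 3 libraries against 3, an exact permutation p for 1 gene is 0.1 at the least.

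**Figure D2:**
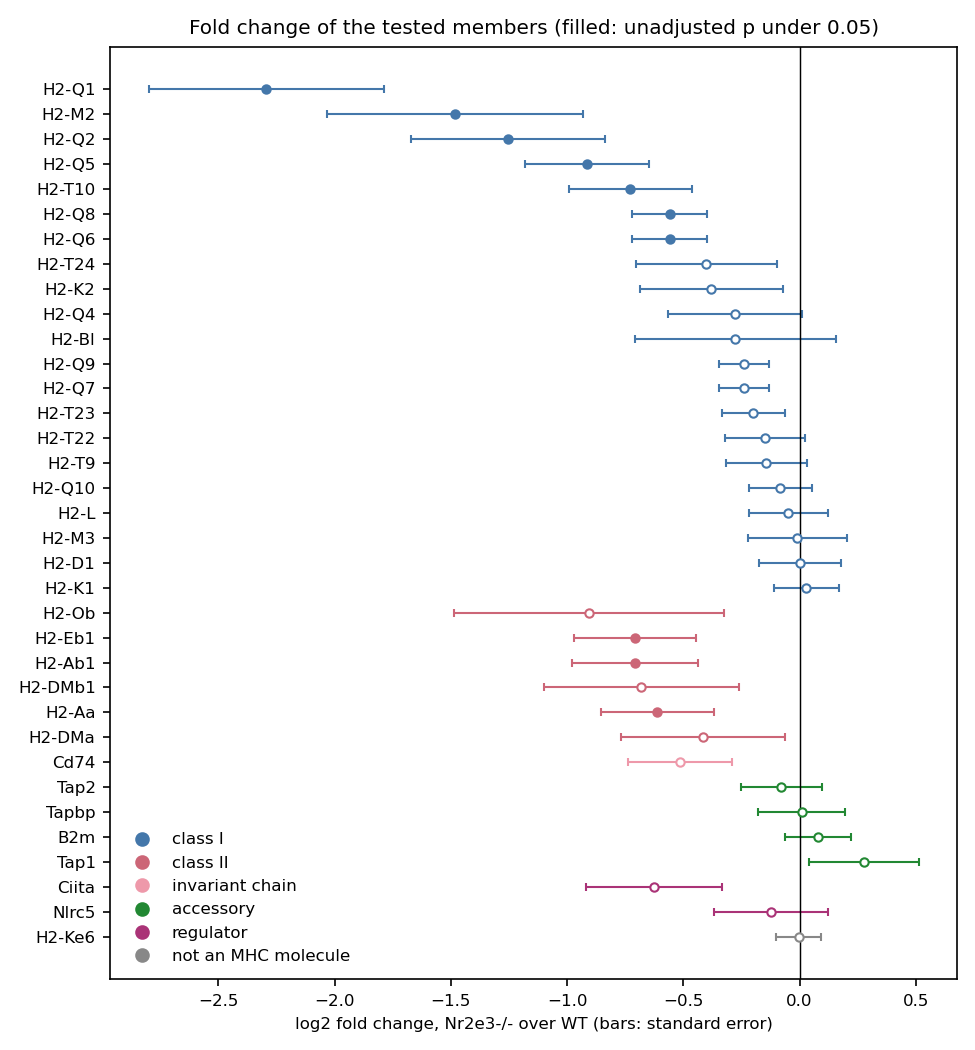
Log2 fold change of Nr2e3-/- over WT tumors for the 35 tested members, grouped by class, with bars for the standard error and filled points for an unadjusted p under 0.05 in edgeR. All filled points lie left of 0, from H2-Q1 at -2.29 to H2-Q6 and H2-Q8 at -0.56, and the class II genes lie together between -0.90 and -0.41.

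The 3 classical class II chains were lower in Nr2e3-/- tumors by similar factors. H2-Aa (chr17:34282744-34287823, GRCm38), the alpha chain of the I-A molecule, measured 30.6, 44.5 and 29.2 CPM in the WT libraries and 17.6, 29.8 and 20.7 CPM in the Nr2e3-/- libraries, in replicate order. H2-Ab1 (chr17:34257689-34269419), its beta chain, measured 23.2, 36.1 and 21.8 CPM in WT and 12.1, 21.9 and 15.5 CPM in Nr2e3-/-. H2-Eb1 (chr17:34305867-34316674), the beta chain of I-E, measured 19.8, 33.9 and 22.9 CPM in WT and 13.9, 20.5 and 12.4 CPM in Nr2e3-/-. In all 3 genes WT replicate 2 was the highest library, Nr2e3-/- replicate 2 was the highest of its group and overlapped the lowest WT library, and the other Nr2e3-/- libraries lay below every WT library. The log2 fold changes were -0.61 (SE 0.24) for H2-Aa, -0.71 (SE 0.27) for H2-Ab1 and -0.71 (SE 0.26) for H2-Eb1, with unadjusted p of 0.038, 0.035 and 0.030 and adjusted p of 0.209, 0.1999 and 0.189 in edgeR. The unadjusted p was above 0.05 for each of them without WT replicate 2 (0.145, 0.131 and 0.112), without Nr2e3-/- replicate 1 (0.0999, 0.0883 and 0.0755) or without Nr2e3-/- replicate 3 (0.112, 0.0962 and 0.1001), with all fold changes still negative.

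The partners of the class II molecule had negative fold changes too, with an unadjusted p above 0.05 in edgeR with all libraries. Cd74 (chr18:60803848-60812652) measured 75.8, 107.9 and 77.2 CPM in WT and 48.5, 79.4 and 54.7 CPM in Nr2e3-/-, so that Nr2e3-/- replicate 2 again reached into the WT range, and its log2 fold change was -0.51 (SE 0.22, edgeR unadjusted p 0.054). Its unadjusted p was under 0.05 in 7 of the 13 alternatives, among them DESeq2 (0.039), limma-voom (0.019) and the analysis without Nr2e3-/- replicate 2 (0.0056, log2 fold change -0.75), and its adjusted p over the alternatives ranged from 0.0758 to 0.531. Ciita (chr16:10480059-10528418) stood at 1.804, 2.604 and 1.664 CPM in WT and 1.125, 1.633 and 1.135 CPM in Nr2e3-/-. These Ciita groups did not overlap, 1.633 against 1.664 CPM at their nearest, and the fold change was -0.62 (SE 0.29, edgeR unadjusted p 0.069). The peptide exchange chains H2-DMa and H2-DMb1 and the exchange inhibitor chain H2-Ob had log2 fold changes of -0.41 (SE 0.35), -0.68 (SE 0.42) and -0.90 (SE 0.58), all with overlapping groups. All 6 tested class II genes were thus on the lower side, with a median of -0.69, which was -0.53 without Nr2e3-/- replicate 1, -0.91 without Nr2e3-/- replicate 2 and -0.42 without WT replicate 2.

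Markers of B cells were lower in Nr2e3-/- tumors, while those of macrophages depended on 1 library. In bulk tumor RNA, fewer cells of a type and less RNA per cell cannot be told apart. Of 8 B cell markers, 5 passed the filter and all had negative fold changes. In edgeR 4 (Cd79b, Cd79a and Ms4a1 among them) had an unadjusted p under 0.05, against 9.72% of all tested genes lower, and the lowest adjusted p was 0.102. In DESeq2 2 of the 5 had an unadjusted p under 0.05, and Cd79b an adjusted p under 0.05, against 3.07% of all genes lower. With at least 10 counts in every library only 1 was tested, and it was not called. The summed level over all 8 was 5.34 to 6.76 CPM in WT and 2.16 to 3.67 CPM in Nr2e3-/- libraries, with Pax5 at 0 in Nr2e3-/- replicates 1 and 3. The 10 macrophage and Kupffer cell markers summed to 575 to 633 CPM in WT and to 480, 1066 and 541 CPM in Nr2e3-/-, and none of them had p under 0.05. All 10 had positive fold changes with all libraries (median 0.31) and all 10 negative ones without Nr2e3-/- replicate 2 (median -0.24), while the B cell markers had medians of -1.36 and -1.38. Of 8 dendritic cell markers, all tested, only Ccr7 had p under 0.05 (log2 fold change -1.58), and the sums were 10.5 to 12.3 and 7.46 to 12.4 CPM. None of the 8 tested T and NK cell markers and none of the 4 general leukocyte markers (42.1 to 59.8 CPM in WT, 30.2 to 89.4 CPM in Nr2e3-/-) had p under 0.05. When Nr2e3-/- replicate 2 was left out, the median log2 fold change went from -0.29 to -0.61 for the dendritic cell list, from -0.33 to -1.38 for the T and NK cell list and from 0.16 to -0.42 for the general leukocyte list. At an unadjusted p under 0.05 in edgeR, 2 of 8, 2 of 8 and 0 of 4 of these were then lower. The same held for 1 of 10 macrophage markers, against 9.46% of all tested genes. Without Nr2e3-/- replicate 1, 2 of 10 macrophage markers were higher, against 19.9% of all tested genes. Class II per macrophage marker count was 0.132, 0.197 and 0.141 in WT and 0.0998, 0.0741 and 0.0966 in Nr2e3-/-, so that the groups did not overlap and Nr2e3-/- replicate 2, with the highest macrophage level, had the lowest ratio. The macrophage sum is the denominator, so its high value by itself lowers the ratio of that library. This ratio is not a class II level per macrophage, since B cells and dendritic cells carry class II too. The part of the listed cell types in the class II values was not tested.

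**Figure D3:**
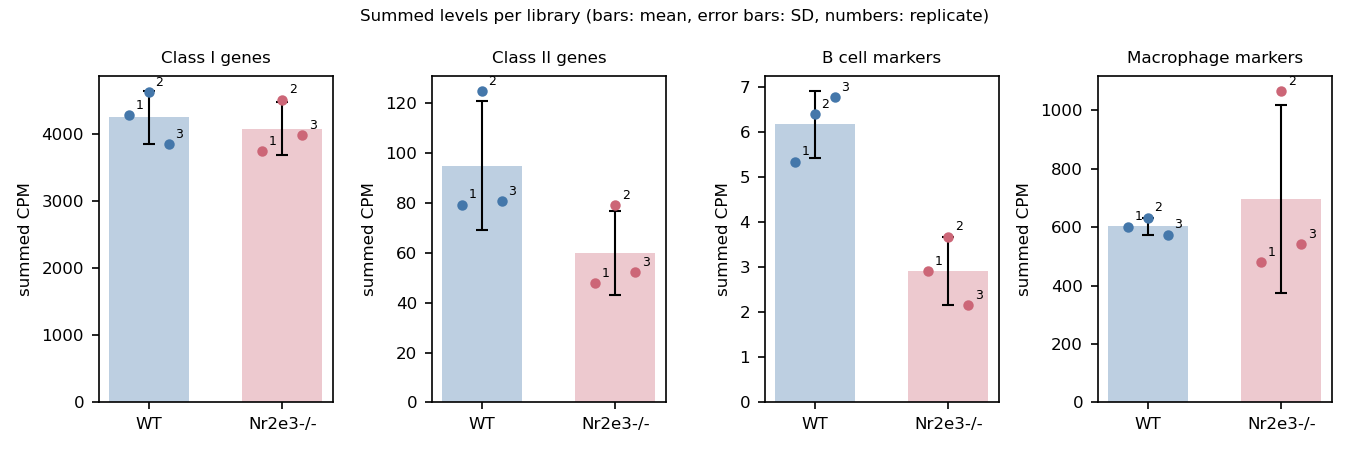
Summed CPM per library of class I genes, class II genes, 8 B cell markers and 10 macrophage markers, with bars for the mean of 3 libraries, error bars for the SD and numbers for the replicate. The class I sums overlap between the genotypes, the class II sums are 79.4 to 124.9 CPM in WT and 47.9 to 79.0 CPM in Nr2e3-/-, and macrophage markers are highest in Nr2e3-/- replicate 2.

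The abundant class I genes and their partners differed by less than the spread between libraries. H2-K1 (chr17:33996017-34000347) measured 924, 1144 and 935 CPM in WT and 926, 1076 and 1063 CPM in Nr2e3-/-. H2-D1 (chr17:35262730-35267499) measured 442, 533 and 428 CPM in WT and 376, 564 and 465 CPM in Nr2e3-/-. The genotypes overlapped fully in both genes, with log2 fold changes of 0.03 (95% interval -0.30 to 0.36) and 0.003 (-0.41 to 0.42) in edgeR. B2m (chr2:122147686-122153083) measured 1326, 1560 and 1319 CPM in WT and 1310, 1631 and 1497 CPM in Nr2e3-/-, a log2 fold change of 0.08 (-0.26 to 0.41). H2-Q10 measured 2284, 2188 and 1903 CPM in WT and 1928, 2185 and 1905 CPM in Nr2e3-/-, a log2 fold change of -0.08 (-0.40 to 0.24). These intervals leave room for changes of that size in either direction, so equality of the groups was not shown.

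Transporter, tapasin and transactivator were in the same position. The log2 fold changes were 0.28 (SE 0.24) for Tap1, -0.08 (SE 0.17) for Tap2, 0.01 (SE 0.19) for Tapbp and -0.12 (SE 0.24) for Nlrc5, and all 4 had overlapping groups. Nlrc5 measured 27.9, 31.3 and 27.0 CPM in WT and 23.2, 37.2 and 18.7 CPM in Nr2e3-/-, and Nr2e3-/- replicate 2 was its highest library and Nr2e3-/- replicate 3 its lowest. With Nr2e3-/- replicate 2 left out, Nlrc5 had a log2 fold change of -0.46 with an unadjusted p of 0.016 and an adjusted p of 0.197 in edgeR, and its adjusted p over the alternatives ranged from 0.197 to 0.952. Exons of Tap1 overlap those of Psmb9 on the opposite strand, and the strand setting of the counting was not given in the sources used here. H2-T23 and H2-M3, a presenter of N-formylated bacterial peptides, had log2 fold changes of -0.20 (SE 0.14) and -0.01 (SE 0.21).

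Differences within class I lay among the weakly expressed nonclassical genes. Taking shared rows once, none of the 7 class I genes at or above 20 CPM in WT tumors had an unadjusted p under 0.05 in edgeR. Of the 10 below that level 6 did, all 10 had negative fold changes, and 9.72% of all tested genes were lower at that threshold. The 20 CPM cut was not part of the planned analysis, and H2-Q1, at a WT mean of 17.8 CPM, lay just below it. H2-Q1 (chr17:35320405-35325099), a gene of the Q region, measured 17.04, 29.35 and 7.07 CPM in WT and 3.04, 4.75 and 2.97 CPM in Nr2e3-/-. Every WT library lay above every Nr2e3-/- library, although the WT libraries differed among themselves by more than the Nr2e3-/- libraries did. Its log2 fold change was -2.29 (SE 0.51, 95% interval -3.48 to -1.11), with an unadjusted p of 0.0025 and an adjusted p of 0.1005 in edgeR and an adjusted p of 0.00011 in DESeq2. Without Nr2e3-/- replicate 1 the adjusted p was 0.0464 in edgeR, and over all 13 alternatives the fold change stayed between -2.68 and -1.73 and the adjusted p ranged from 0.00011 to 0.355.

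Its neighbours in the Q region had smaller fold changes of the same sign. H2-Q2 (chr17:35342242-35346762) measured 0.921, 1.28 and 0.659 CPM in WT and 0.265, 0.557 and 0.324 CPM in Nr2e3-/-, a log2 fold change of -1.25 (SE 0.42, edgeR unadjusted p 0.019). H2-Q5 (chr17:35394126-35397800) measured 2.88, 2.87 and 1.80 CPM in WT and 1.46, 1.26 and 1.30 CPM in Nr2e3-/-, a log2 fold change of -0.91 (SE 0.27, edgeR unadjusted p 0.011). H2-Q6 (chr17:35424850-35430055) measured 14.7, 14.9 and 10.9 CPM in WT and 9.66, 9.46 and 8.38 CPM in Nr2e3-/-, a log2 fold change of -0.56 (SE 0.16, edgeR unadjusted p 0.010). In these 3 genes the groups did not overlap. H2-Q7, which encodes a Qa-2 molecule, stood at 37.0, 38.4 and 32.2 CPM against 29.1, 30.7 and 31.4 CPM, again without overlap, with a log2 fold change of -0.24 (SE 0.11, edgeR unadjusted p 0.062). H2-Q4 at -0.28 (SE 0.29) and H2-Q10 at -0.08 (SE 0.14) had overlapping groups. In chromosomal order from H2-Q1 to H2-Q10 the 7 values were thus -2.29, -1.25, -0.28, -0.91, -0.56, -0.24 and -0.08, all negative.

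**Figure D4:**
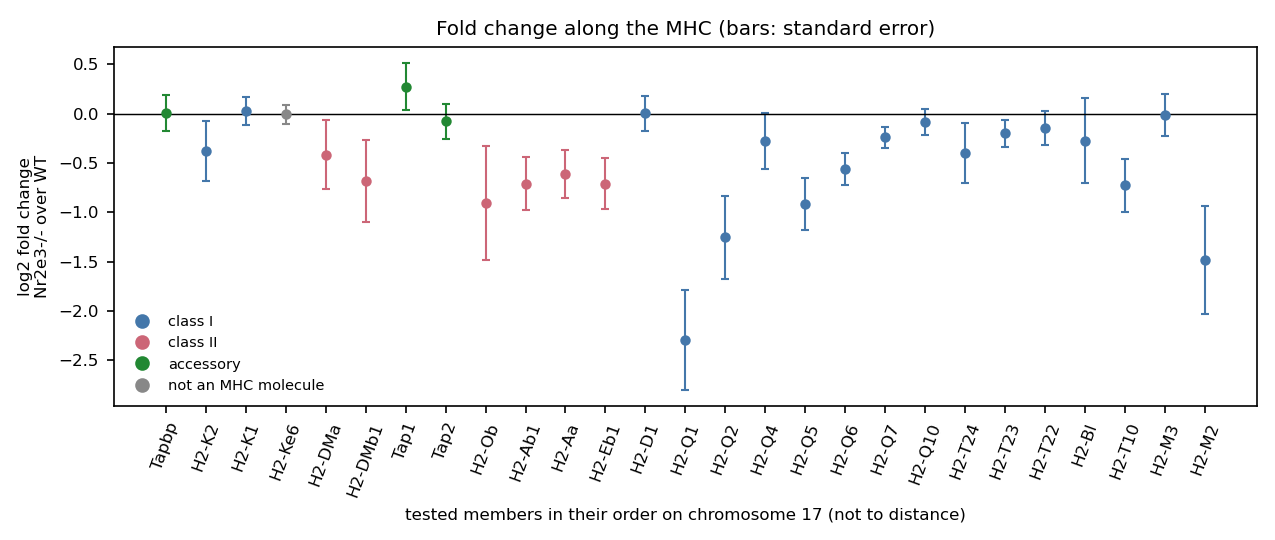
Log2 fold change (Nr2e3-/- over WT, bars for the standard error) of the 27 tested members on chromosome 17 that carry a position, in chromosomal order and not to distance. The class II block from H2-DMa to H2-Eb1 lies below 0 apart from Tap1, which is at 0.28, with Tap2 near 0, H2-D1 lies at 0, and the Q genes start at -2.29 with H2-Q1 and reach -0.08 at H2-Q10.

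Outside the Q region, H2-T10 and H2-M2 also had lower values. H2-T10 (chr17:36115876-36121465), whose product is a ligand of some gamma-delta T cell receptors, measured 1.96, 2.64 and 1.63 CPM in WT and 1.19, 1.26 and 1.30 CPM in Nr2e3-/-, with no overlap and a log2 fold change of -0.73 (SE 0.26, edgeR unadjusted p 0.028). The GENCODE M21 annotation lists H2-T10 and H2-Q5 as polymorphic pseudogenes and H2-K2 as a transcribed unprocessed pseudogene. H2-M2 (chr17:37480851-37483552) rested on 11, 21 and 11 counts in WT and 3, 7 and 1 counts in Nr2e3-/-, and its log2 fold change of -1.48 (SE 0.55, edgeR unadjusted p 0.030) is of correspondingly low precision. Without WT replicate 2 or without Nr2e3-/- replicate 3, only H2-Q1, H2-Q5, H2-Q6 and H2-Q8 of all members kept an unadjusted p under 0.05 (4 of 35, 11.4%, against 6.04% and 5.47% of all tested genes lower in those analyses), and without Nr2e3-/- replicate 1 these were joined by H2-K2, 5 of 35 (14.3%) where 17.8% of all tested genes were lower at that threshold. Without Nr2e3-/- replicate 2, 15 members were lower, against 9.46% of all tested genes.

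Several class I rows cannot be read as separate measurements. H2-Q6 and H2-Q8 held identical counts in all 6 libraries, as did H2-Q7 and H2-Q9. Counts of H2-T9 were 0.981 to 0.988 of those of H2-T22, and those of H2-L, a gene that the b haplotype lacks, were 0.591 to 0.633 of those of H2-D1. No gene of the symbols H2-L, H2-Q8, H2-Q9 or H2-T9 stood on the GENCODE M21 chromosomes. Of the 50-base windows in the transcripts, 36.4% of those of H2-Q5, 32.9% of H2-T10, 32.0% of H2-Q6, 26.4% of H2-Q7 and 14.96% of H2-Q1 also occurred in another gene, against 12.8% for H2-D1, 9.63% for H2-K1, 0.488% for H2-Aa and none for H2-Ab1 and H2-Eb1. Among tested class I genes with overlapping groups the share ran from 0.576% for H2-M3 to 34.5% for H2-T22, with 21.8% for H2-Q4 and 19.0% for H2-Q10. H2-Q2 and H2-M2, without overlap, shared 16.1% and 1.61%. H2-DMb1 shared 22.7% of its windows, with H2-DMb2. Fold changes of genes with shared windows are uncertain in this respect, since the handling of reads that map to several places was not given in the sources used here. The ratio of H2-Q6 to H2-Q7 counts was 0.339 to 0.396 in WT and 0.267 to 0.332 in Nr2e3-/- libraries, without overlap.

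The class I to class II ratio was higher in each Nr2e3-/- library than in each WT library. Class I genes summed to 4277, 4624 and 3844 CPM in WT and 3744, 4511 and 3981 CPM in Nr2e3-/-, with identical rows counted once. Class II genes summed to 79.4, 124.9 and 80.8 CPM in WT and 47.9, 79.0 and 52.3 CPM in Nr2e3-/-. The class I sums overlapped, with a ratio of means (Nr2e3-/- over WT) of 0.960, while the class II sums did not, by 79.0 against 79.4 CPM at their nearest, with a ratio of means of 0.629. The class I to class II ratio was 53.9, 37.0 and 47.6 in WT (46.2 ± 8.51, SD, n = 3) and 78.1, 57.1 and 76.1 in Nr2e3-/- (70.5 ± 11.6), with every Nr2e3-/- library above every WT library. With classical chains only (H2-K1 and H2-D1 against H2-Aa, H2-Ab1 and H2-Eb1) it was 14.6 to 18.6 in WT and 22.8 to 31.4 in Nr2e3-/-, and per kilobase of transcript it was 23.8 to 34.2 and 36.3 to 51.2. No p is given for these sums, since the members were chosen with results of these data known. Per unit of class II, Cd74 was 0.864 to 0.955 in WT and 1.005 to 1.046 in Nr2e3-/-, without overlap.

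With all libraries, more genes were higher than lower in 5 lists around antigen presentation. These lists also hold general chaperones, costimulation genes and class I-like molecules. Over 72 further genes in 5 lists, 65 were tested, and 14 were higher and 5 lower in Nr2e3-/- at an unadjusted p under 0.05 in edgeR (21.5% and 7.69%, against 11.8% and 9.72% of all tested genes). None had an adjusted p under 0.05 in edgeR. In DESeq2, 10 of the 65 had an adjusted p under 0.05 in either direction, and 3 of them (Raet1a, Raet1d and Raet1e) were lower. Over all genes in DESeq2, 8.0% had one in either direction. The median log2 fold change of 0.18 was 0.35 without Nr2e3-/- replicate 1 and -0.02 without Nr2e3-/- replicate 2. Without Nr2e3-/- replicate 1, 26 genes were higher and 5 lower (39.4% and 7.58%, against 19.9% and 17.8% of all tested genes). Without Nr2e3-/- replicate 2, 8 were higher and 8 lower (12.3% each, against 9.54% and 9.46% of all tested genes). Among the 15 other class I pathway genes, 6 were higher and none lower, and 5 of the 6 had an adjusted p under 0.05 in DESeq2. These 5 were the endoplasmic reticulum chaperone Hspa5 (log2 fold change 1.08, SE 0.20), the chaperones of the peptide-loading complex Calr (0.51, SE 0.14) and Pdia3 (0.51, SE 0.15), the lectin chaperone Canx (0.38, SE 0.12) and the proteasome activator subunit Psme3 (0.57, SE 0.15). The other was the translocon subunit Sec61b (0.36, SE 0.15), whose adjusted p in DESeq2 was not under 0.05. Hspa5 stood at 1799, 1278 and 1209 CPM in WT and 3006, 2558 and 3489 CPM in Nr2e3-/-, with every Nr2e3-/- library above every WT library. The immunoproteasome subunits Psmb8, Psmb9 and Psmb10, by contrast, had log2 fold changes of -0.12, -0.24 and 0.27 with overlapping groups.

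Of the 16 other class II pathway genes, 4 were higher and none lower at an unadjusted p under 0.05 in edgeR, against 11.8% and 9.72% of all tested genes. Without WT replicate 2 or without Nr2e3-/- replicate 2 only 1 was higher, where 6.96% and 9.54% of all tested genes were. Without Nr2e3-/- replicate 1 there were 9, against 19.9% of all tested genes. The X box factor subunit Rfxank measured 17.5, 15.5 and 15.4 CPM in WT and 20.8, 22.6 and 24.9 CPM in Nr2e3-/-, without overlap, with a log2 fold change of 0.50 (SE 0.12) and an adjusted p of 0.112 in edgeR and 0.021 in DESeq2. The Y box factor subunits Nfya (0.41, SE 0.14) and Nfyb (0.84, SE 0.29) and the protease Ctsl (0.71, SE 0.26), which degrades the invariant chain in some cells, were the others, and cathepsin S (Ctss), which does so in antigen-presenting cells, had a log2 fold change of 0.33 (SE 0.30).

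Of the 18 tested genes between interferon gamma and the MHC, 4 were higher (Jak1, Socs3, Irgm1 and Irf1) and 1 lower (Gbp4, an interferon-induced GTPase) at an unadjusted p under 0.05 in edgeR, against 11.8% higher and 9.72% lower of all tested genes. Their median log2 fold change was 0.44, and 0.004 without Nr2e3-/- replicate 2. In that analysis 1 was higher and 2 were lower, against 9.54% and 9.46% of all tested genes. Without Nr2e3-/- replicate 1, 10 of the 18 were higher and 0 lower, against 19.9% and 17.8% of all tested genes, with a median of 0.65. Without WT replicate 1, 0 of the 18 were higher or lower at that threshold, against 8.44% and 7.13% of all tested genes. Irgm1, an interferon-induced GTPase, measured 51.9, 61.5 and 41.7 CPM in WT and 50.8, 275.7 and 115.5 CPM in Nr2e3-/-, so that Nr2e3-/- replicate 1 lay within the WT range and the others far above it, with a log2 fold change of 1.51 (SE 0.55) and an adjusted p of 0.181 in edgeR and 0.030 in DESeq2. Socs3, a feedback inhibitor of cytokine signaling, showed the same order with 5.29, 96.4 and 54.0 CPM in Nr2e3-/- against 9.84 to 11.7 CPM in WT (log2 fold change 2.28, SE 0.82). Ifng itself was at or below 0.074 CPM in every library. None of the 7 tested genes of costimulation and checkpoints had an unadjusted p under 0.05 in edgeR with all libraries. Without Nr2e3-/- replicate 2, 3 of the 7 were lower at that threshold, against 9.46% of all tested genes. All 7 fold changes were then negative, with a median of -0.51.

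Class I-like molecules outside the complex held the remaining lower genes, 4 of 9 tested at an unadjusted p under 0.05 in edgeR, against 9.72% of all tested genes. Raet1a and Raet1d, which nearly repeat each other, are counted separately in these 4. Raet1a, Raet1d and Raet1e encode RAE-1 family ligands of the activating receptor NKG2D, and their log2 fold changes were -1.45 (SE 0.33), -1.42 (SE 0.32) and -1.41 (SE 0.44) with adjusted p of 0.103, 0.103 and 0.148 in edgeR and 0.0017, 0.0018 and 0.030 in DESeq2. Raet1a measured 9.44, 21.5 and 10.6 CPM in WT and 5.36, 5.42 and 4.38 CPM in Nr2e3-/-, without overlap, and Raet1d nearly repeated these values, so that these close paralogs are uncertain as separate measurements. Cd1d1, which presents lipids to NKT cells, measured 121.6, 138.8 and 139.3 CPM in WT and 118.3, 101.9 and 102.6 CPM in Nr2e3-/-, without overlap, with a log2 fold change of -0.31 (SE 0.11, edgeR unadjusted p 0.028).

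The members with the larger fold changes kept their direction in the alternatives. H2-Aa, H2-Ab1, H2-Eb1, Cd74, H2-Q1, H2-Q5 and H2-Q6 had negative fold changes in all 13 alternative analyses, and H2-Q1, H2-Q5 and H2-Q6 an unadjusted p under 0.05 in all 13, whereas the 3 class II chains had one in 10 of 13. H2-K1 and H2-D1 changed sign between alternatives, within -0.06 to 0.14 and -0.15 to 0.15. H2-Q6 and H2-Q8 had an adjusted p of 0.0498 and H2-M2 one of 0.0402 in limma-voom with sample quality weights, under which 7.91% of all tested genes were lower and 17.4% differed in either direction at an adjusted p under 0.05, and over the alternatives the adjusted p of H2-Q6 ranged from 0.0498 to 0.395.

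**Figure D5:**
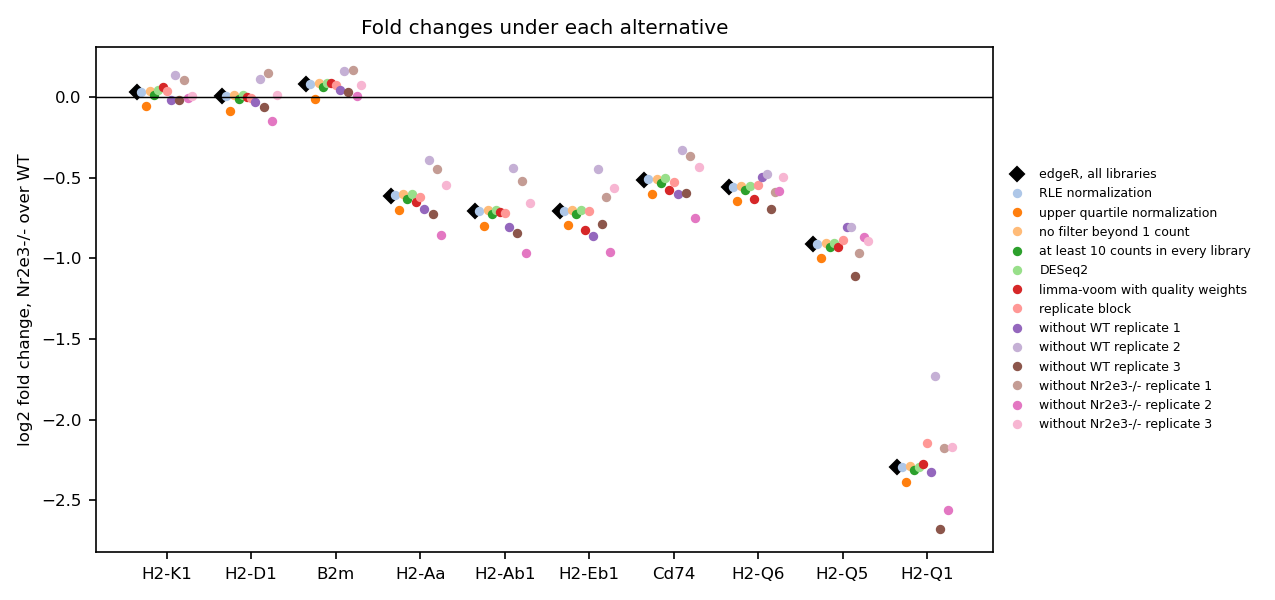
Log2 fold change (Nr2e3-/- over WT) of 10 members in the edgeR analysis with all libraries (diamond) and in 13 alternatives (circles). H2-K1, H2-D1 and B2m scatter around 0, the class II chains and Cd74 stay between -0.97 and -0.33, and H2-Q1 stays between -2.68 and -1.73.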

How the data were processed

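RNA-seq of 3 WT and 3 Nr2e3-/- liver tumors was grouped by the genotype and title in the labels. The count table deposited by the authors holds raw counts per gene symbol, made from TruSeq libraries of single-end reads aligned to mm10 with TopHat and counted with featureCounts (the submitters' processing notes also name Bowtie2 2.4.5 and SAMtools 1.14). Annotation, strand and multi-mapping options were not given in the sources used here. The authors' normalized table holds a signal, counts divided by a size factor per library, and was used only to restore 25 of 27 gene symbols turned into dates. The authors' table of log2 fold changes and p-values was not used.

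Counts (15376261 to 28690279 per library) were filtered with filterByExpr at its defaults (minimum count 10, minimum total 15), normalized by TMM and tested with the edgeR 4.0.16 quasi-likelihood F test in R 4.3.3, two-sided, with Benjamini-Hochberg adjustment over all 13572 genes tested. The pipeline was tested on simulated data. Alternatives were RLE and upper quartile scaling, a filter of 1 count in any library or of 10 in each library, DESeq2 1.42.0, limma-voom 3.58.1 with quality weights, the replicate number as a block, and leaving out each library. Levels per kilobase used the principal transcript in GENCODE M21 (GRCm38), and gene positions come from there. Intervals and the limit of 3 counts for a count of 0 cover counting error only or the spread between libraries, as stated. Python 3.11.15, pandas 2.3.3 and matplotlib 3.10.9 were used.

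The members and lists were chosen with earlier results of these data known. Named members are the main genes of each class and its machinery, each further member with an unadjusted p under 0.05, non-overlapping groups or a row identical to another. Other genes are named when their adjusted p was under 0.05 in edgeR or DESeq2 or when they were among the 3 smallest unadjusted p under 0.05 per list and direction, and a few were added after their values were seen (Ctss, Ctsl, Ifng, Sec61b, Irf1, Cd1d1, the immunoproteasome subunits and Alb). Marker lists of endothelium (1 lower, 1 higher of 6), bile duct (2 higher of 5) and hepatocytes (2 higher of 7) at an unadjusted p under 0.05 in edgeR were also counted. Of all tested genes 11.8% were higher and 9.72% lower at that threshold. In the bile duct list 0 were higher without WT replicate 2 or without WT replicate 3, against 6.96% and 6.67% of all tested genes. Single values of a few list genes and 1 motif are not reported here.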

Additional observations from a re-analysis of the deposited data

How the results depend on the processing

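The number of members with an unadjusted p under 0.05, 10 with edgeR and all libraries, was 10 to 15 under the other scalings, filters and tools and 4 to 15 when 1 library was left out, all lower in Nr2e3-/-. It was 4 without WT replicate 2, 5 without Nr2e3-/- replicate 1 and 4 without Nr2e3-/- replicate 3, where 6.04%, 17.8% and 5.47% of all tested genes were lower. The medians of class I and class II kept their sign throughout, at -0.38 to -0.13 and -0.91 to -0.42, and the log2 ratio of class I to class II sums (0.61) stayed at 0.46 to 0.76, including a sum without H2-L and H2-T9 (0.61) that was chosen after seeing the data.

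Over all genes, the 13 with an adjusted p under 0.05 became 8 with upper quartile scaling, 70 with no filter, 7 with at least 10 counts in every library, 1096 with DESeq2, 2360 with limma-voom and 0 to 3022 without 1 library, the 3022 being without Nr2e3-/- replicate 1. The 2916 with an unadjusted p under 0.05 became 4981 with limma-voom and 1693 to 5220 without 1 library. The 19 other antigen presentation genes became 11 to 31 without 1 library. The causes were not tested.

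Genes near 0 changed sign. With upper quartile scaling, which moved the median of all genes to -0.08, H2-K1 was at -0.059, H2-D1 at -0.088, B2m at -0.011 and Tapbp at -0.079. With at least 10 counts in every library, H2-D1 was at -0.015 and Tapbp at -0.0094. H2-M3 was at 0.0035 with DESeq2, and with limma-voom H2-D1 was at -0.00045 and Tapbp at -0.11. Without 1 library, H2-K1 ranged from -0.022 to 0.14, H2-D1 from -0.15 to 0.15, Tapbp from -0.21 to 0.12, H2-M3 from -0.19 to 0.15, Tap2 from -0.22 to 0.015 and Nlrc5 from -0.46 to 0.078.

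Replicate numbers are shared by the genotypes, but same-numbered libraries deviated together with correlations of only -0.10, 0.24 and 0.01, so they share a number only. With the replicate number as a block, 11 members had an unadjusted p under 0.05 and 0 genes an adjusted p under 0.05 (2438 unadjusted), and H2-D1 and Tapbp were at -0.0096 and -0.013.

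Depth limits the weakest members: H2-M2, H2-Q2 and H2-Ob rested on few counts, and a count of 0 allows 0.105 to 0.195 CPM.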

Other observations

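Chains without a listed partner were present in these tumors. H2-Eb1 transcripts were counted in every library while the pseudogene row of its alpha chain had no counts, and the second I-E beta gene H2-Eb2 reached at most 0.243 CPM.

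Costimulatory genes were weakly expressed, with Cd40 at 0.936 to 2.91 CPM in WT and 0.487 to 1.56 CPM in Nr2e3-/-, and Cd274, the gene of PD-L1, at 2.15 to 4.06 and 1.06 to 3.45 CPM. H2-Ke6, a dehydrogenase gene that lies between H2-K1 and the class II genes, measured 53.5 to 56.6 CPM in WT and 51.2 to 57.8 CPM in Nr2e3-/-, a log2 fold change of -0.004 (SE 0.095) in edgeR, the smallest SE among the 35 tested members, although 70.5% of its 50-base windows also occur in the overlapping gene Gm20427. In the liver sinusoidal endothelium list, Lyve1 was higher (log2 fold change 0.82, SE 0.20) and Kdr lower (-0.61, SE 0.16), with adjusted p of 0.111 and 0.123 in edgeR and 0.0073 and 0.024 in DESeq2.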
